A study of Drosophila melanogaster with 3 samples.

Results

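Intergenic binding sites far from the promoters of protein-coding genes were described for pdm3, a POU-homeodomain transcription factor, in white prepupae of Drosophila melanogaster. A peak belonged to this class when its summit lay inside no protein-coding gene and more than 5 kb from every protein-coding start site on dm6, and the class is called distal intergenic here. Of the 8164 reproducible peaks in the authors' pooled optimal list, 969 met the rule (11.9%, 95% Wilson interval 11.2 to 12.6%). The animals were whole white prepupae, males and females pooled and of unknown age, of 1 transgenic line that stably expresses pdm3 with GFP at its C-terminus. Fragments of 200 to 800 bp, made by sonication, were pulled down with anti-GFP, although the antibody label itself reads pdm3. The 3 biological replicates form 1 group, and there is no untagged, mutant or later group to compare them with. Because whole animals were used, binding in a few cells and weak binding in many cannot be told apart. Signal values are the authors' own per-peak values, of unstated normalization, and give no more than an order of peaks inside 1 list. Read counts are not part of the lists, which leaves library depth unknown, and every interval covers counting error over peaks only.

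POU factors carry a POU-specific domain and a homeodomain, joined by a linker, which together read an octamer-like site in DNA. pdm3 is known for its part in the choice of odorant receptors and in the axon targeting of olfactory neurons. In flies, enhancers of developmental regulators often lie in the long intergenic stretches and introns around those genes, well away from the promoter. White prepupae mark the onset of metamorphosis, when pulses of the steroid ecdysone begin to replace larval tissues by adult ones.

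The DNA at the summits was AT-rich on average. The windows of 4 strong peaks, the highest of those on the arms from which sequence is printed, show the range. Each window holds the summit and 50 bases to either side, on the plus strand of dm6 from the RefSeq sequence of that assembly, with the longest run made only of A and T in capitals. These 4 peaks lay between CG4004 and Paics (the first and the third line), between Cyt-c1L and eEF1gamma, and between CG9300 and Shal.
chrX:12751349-12751449: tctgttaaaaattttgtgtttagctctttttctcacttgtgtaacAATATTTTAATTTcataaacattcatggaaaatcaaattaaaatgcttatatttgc
chr3R:29214399-29214499: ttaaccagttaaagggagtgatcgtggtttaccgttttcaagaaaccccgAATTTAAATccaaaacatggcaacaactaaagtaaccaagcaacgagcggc
chrX:12752328-12752428: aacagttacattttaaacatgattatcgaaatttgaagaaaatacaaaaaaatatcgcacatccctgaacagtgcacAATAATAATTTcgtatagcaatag
chr3L:19560768-19560868: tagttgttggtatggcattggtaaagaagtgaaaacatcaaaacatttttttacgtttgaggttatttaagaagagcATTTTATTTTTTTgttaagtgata
The window between Cyt-c1L and eEF1gamma had a GC content of 41.6%, close to the 42.2% of the 6 arms and so not AT-rich, and the first of the windows between CG4004 and Paics the lowest, 22.8%. The other 2 had 27.7% and 26.7%.

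The octamer that POU factors are known to bind, ATGCAAAT or its reverse complement, stood in 12 of the 969 windows. The 4 highest of these peaks, on the same arms, are shown with the octamer in capitals, to let its place in the window be seen.
chr3L:11389321-11389421: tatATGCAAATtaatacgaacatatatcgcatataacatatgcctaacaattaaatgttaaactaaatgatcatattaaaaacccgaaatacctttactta
chr3R:31482263-31482363: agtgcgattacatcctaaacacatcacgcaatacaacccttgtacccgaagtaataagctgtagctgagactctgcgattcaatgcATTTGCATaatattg
chr3L:6269179-6269279: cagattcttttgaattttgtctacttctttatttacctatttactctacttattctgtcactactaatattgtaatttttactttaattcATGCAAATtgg
chr2L:5493095-5493195: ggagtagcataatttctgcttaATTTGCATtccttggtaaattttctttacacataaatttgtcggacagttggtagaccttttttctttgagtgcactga
The octamers began 47 bp before, 36 bp after, 40 bp after and 28 bp before the summit, so none of the 4 lay across it. Their signal values were 270.1, 241, 238 and 185, above the median of 153 over all distal intergenic peaks. The 4 windows chosen by height ran from 1209 to 2794, a gap that follows from that choice. The 4 octamer peaks shown are in turn the highest of 12, so their values do not tell whether octamer peaks are weak or strong. The first of these octamer peaks lay between CG6163 and CG11726 and the last between mid and CG14020, both among the stretches with 10 distal peaks.

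The mean GC content at distal intergenic summits was 32.0% in such windows, against 44.1% in windows of the same length 500 bp to either side. The summit window was below the mean of its own flanks in 852 of 969 peaks (87.9%). At the summits that each replicate placed in these peaks the mean was 31.5%, 33.1% and 31.5% for replicates 1, 2 and 3, and the difference from the flanks was -12.0 percentage points ± 1.04 (SD, n = 3). All 3 replicates were low at the summit, and replicate 2 less so. Farther out the composition rose above its surroundings: in windows of 51 bp the mean was 31.4% at the summit, 47.5% at 300 bp and 41.8% at 1500 bp before it. The whole territory open to the class, that is all bases that meet the rule, had a GC content of 41.0%.

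Neither the dip nor the shoulders set the class apart by much. Intergenic peaks 1 to 5 kb from a start site had a mean of 32.2% at the summit and intronic peaks in genes over 50 kb also 32.2%, with flanks at 43.4% and 42.8%. The 3996 distal candidates that ranked below the optimal list had a shallower dip, with 37.2% at the summit and 42.9% in the flanks. Within the optimal class the depth of the dip hardly followed height, at -12.0 percentage points in the 100 highest peaks and -11.2 in ranks 601 to 969.

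**Figure D1:**
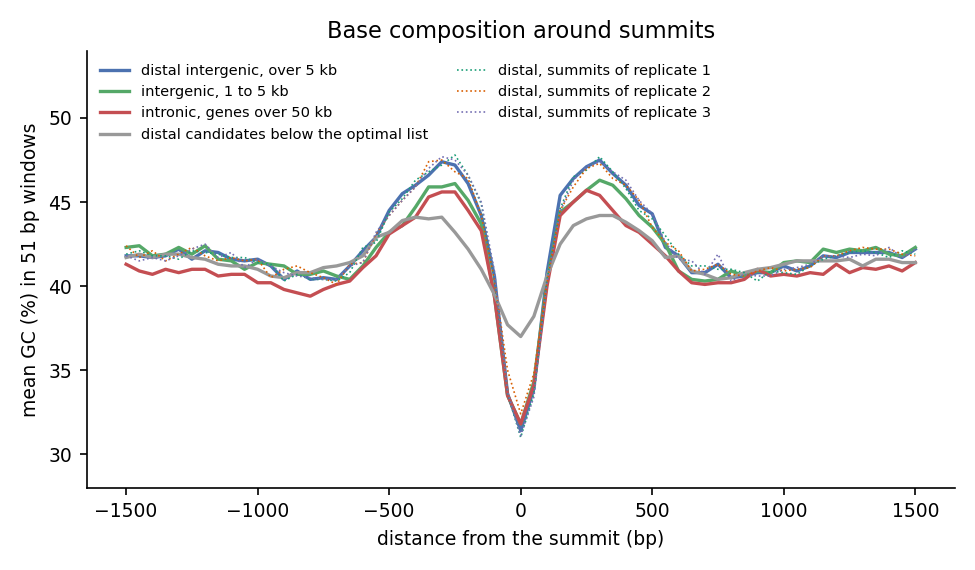
Mean GC content (%) in 51 bp windows against distance from the summit (bp), for distal intergenic peaks, 2 comparison classes and lower-ranked distal candidates; dotted lines take the summits of each replicate. The distal class falls to 31.4% at the summit and reaches 47.5% at 300 bp, and the lower candidates fall only to 37.0%.

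Short sequence words followed the composition. Of the 36 six-letter words made only of A and T, counted with their reverse complements, 36 were found in more summit windows than flank windows, and together 2.07 times as often. Of the 36 made only of G and C, 0 were, and their ratio was 0.211. Among 19 known motifs the TATA word, TATAAA, stood in 23.1% of summit windows (95% Wilson interval 20.6 to 25.9%) and 9.08% of flanks, a ratio of 2.55 beside the 2.07 of its A and T class. The homeodomain core TAATTA stood in 10.2% of summits and 5.93% of flanks, a ratio of 1.72, below that of its class.

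The POU octamer was not more frequent at summits. It was present at 1.24% of summits (0.71 to 2.15%) and 2.22% of flanks (1.65 to 2.98%), a ratio of 0.558, whereas all eight-letter words with 2 G or C letters together had 1.71. At the replicates' own summits the difference was -1.05, -0.961 and -0.681 percentage points, a mean of -0.899 ± 0.194 (SD, n = 3). The Wilson intervals of summits and flanks overlap. Here and for the motifs that follow, they treat the windows as separate although both come from the same peaks, and no paired test was made. The shortfall is therefore left unresolved, and an excess of octamers like that of other words of its composition was not seen. The difference of -0.98 percentage points ranged from -0.568 within 30 bp to -2.43 within 100 bp of the summit. It turned to 1.09 in the 46 members whose windows held no soft-masked base, too few for so rare a word to give a direction. Under the other 7 alternatives it stayed negative. Other optimal peaks had the octamer in 1.64% of summits, intergenic peaks at 1 to 5 kb in 2.23%. The shorter ATGCAA stood in 10.7% of distal summits and 11.8% of flanks, where words of the same length and composition had a ratio of 1.25 and this one 0.908.

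Several other motifs had ratios away from their composition. AGGTCA, the core that many nuclear receptors bind, was in 2.37% of summits (1.59 to 3.54%) and 1.55% of flanks (1.09 to 2.20%), a ratio of 1.53 where its class had 0.758. Its difference was positive in all 3 replicates, 1.02 percentage points ± 0.366 (SD, n = 3), although the intervals overlap. CA repeats, CACACACA, were scarcer at summits (0.619%) than in flanks (2.63%), a ratio of 0.235 against 0.666 for their class. The E-box CAGCTG, at 1.65% and 3.72%, had a ratio of 0.444 and so followed its class at 0.449. TATCGATA, the DREF element that marks many housekeeping promoters, was in 2 distal summits (0.206%, 0.0566 to 0.749%), against 0.862% of the other optimal peaks. It was about as rare in intergenic peaks at 1 to 5 kb (0.262%) and in intronic peaks of genes over 50 kb (0.33%), so this does not set the distal class apart. TTTATG, a word of caudal-type homeodomains, was in 12.8% of summits and 15% of flanks, a ratio of 0.855 where words with 1 G or C letter had 1.78. Of those 192 words 191 were more frequent at summits, and the difference of this one was -2.04 percentage points ± 0.552 at the replicates' summits (SD, n = 3). TGTTTAC, a forkhead word, was in 1.55% and 1.81%, a ratio of 0.857 against 1.47 for its class, and TGACTCA, the AP-1 site, in 0.516% and 1.14%, 0.455 against 0.924. GTGGGAA was in 1.14% and 1.24%, 0.917 against 0.544. Closer to their classes were GATAAG (4.95% and 3.97%, 1.25 against 1.25), GAGAG (8.77% and 11.4%, 0.773 against 0.629), CAGGTA (1.34% and 2.22%, 0.605 against 0.758) and CACGTG (0.413% and 0.98%, 0.421 against 0.449). TTCNNNGAA was in 2.99% and 2.73%, and GGTCACACT in 0.206% and 0.103%, on 2 summits. AACCGGTT was in 0 of 969 summits, which allows up to 0.395%, and in 0.103% of flanks. For these 11 motifs, from TTTATG on, the intervals of summits and flanks overlapped. A match says only that the letters are there, on either strand, and overlaps between motifs were not removed.

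Distal intergenic peaks were few among the strongest peaks and more frequent down the list. They made up 5.0% of the 500 highest pooled candidates (95% Wilson interval 3.41 to 7.28%), 6.4% of ranks 501 to 1000, 9.8% of ranks 1001 to 2000 and 13.8% of ranks 4001 to 8164. Below the optimal list the share was 17.4% in ranks 8165 to 16000 and 18.8% in ranks 16001 to 30000, close to the 19.4% of the genome that the territory covers. The replicates' own lists had means of 5.13% ± 0.462 in the first of these bins and 17.8% ± 1.28 in the last (SD, n = 3), and no replicate's value in the last bin came near any value in the first.

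**Figure D2:**
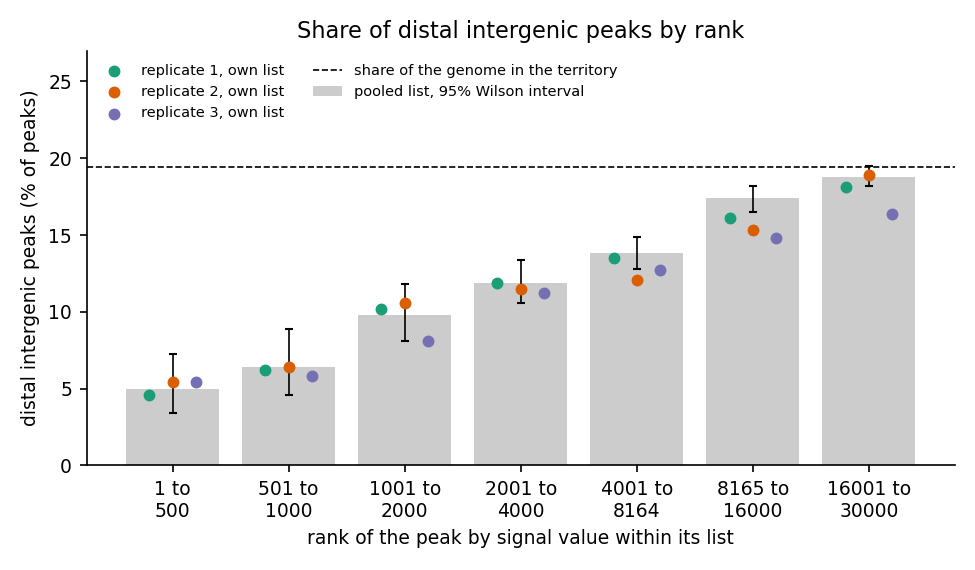
Share of peaks that are distal intergenic (%) in bins of rank by signal value; bars give the pooled list with 95% Wilson intervals, points each replicate's own list, and the dashed line the 19.4% of the genome in the territory. The share climbs from 5.0% in the first bin to 18.8% in the last, in the pooled list and in all 3 replicates.

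In the optimal list the distal peaks had a median signal value of 153, against 176 for all other peaks, with a range from 89.9 to 3095. Only 4 were among the 100 highest optimal peaks and 57 among the 1000 highest. In each replicate the median distal peak stood at 16.2%, 16.2% and 16.5% of the way down that replicate's list, and the median other peak at 13.3%, 13.2% and 13.4%. The distal peaks ranked lower in all 3 replicates, by 3.00 percentage points ± 0.0963 (SD, n = 3, two-sided exact permutation test, p = 0.25, the smallest that 3 replicates allow). Against intergenic peaks at 1 to 5 kb the difference was 0.816 ± 0.293 and against intronic peaks of genes over 50 kb 1.58 ± 0.287 (SD, n = 3, the same exact test, p = 0.25 for each).

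Most members were seen by every replicate. All 3 replicate lists covered at least 50% of the peak in 905 of 969 (93.4%, 95% Wilson interval 91.7 to 94.8%), against 91.2% of all optimal peaks. When each replicate list was limited to its 8164 highest peaks, 577 members were covered by all 3 (59.5%, 56.4 to 62.6%), against 62.3% of all optimal peaks. Both shares are near the background, and since the optimal list was selected for reproducibility among these libraries they describe the selection as well as the binding. Spearman's rho of the members' signal values was 0.75 for replicates 1 and 2, 0.82 for replicates 1 and 3 and 0.73 for the remaining pair, each over at least 959 peaks that share the same libraries, and other peaks had 0.81, 0.87 and 0.80. The replicates' own lists, at the length of the optimal list, placed 955, 899 and 889 peaks in the class, 11.2% ± 0.436 (SD, n = 3).

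The highest member, chr2R:13035099-13035578, had a signal value of 3095 and lay between Su(z)2, a Polycomb group gene, and CG13323. In the replicates it ranked 5, 4 and 12, with signal values of 1069.7, 891 and 1156. The other 7 distal peaks of that stretch were far lower, so that the median of all 8 was 105. Its nearest start site, that of CG13323, was 11918 bp away.

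Next came a short stretch of 7250 bp on X between CG4004 and Paics, an enzyme gene of purine synthesis, which held 3 of the 6 highest members. The peak chrX:12750827-12751680 had a signal value of 2794 and ranks of 13, 9 and 14, and its summit was inside the noncoding gene lncRNA:Vinr. The peak chrX:12752132-12752575 had 2364 and ranks of 23, 19 and 26, and chrX:12754325-12754713 had 1199 and ranks of 107, 204 and 109, and both lay inside lncRNA:CR44619. All 3 were high in every replicate, the third least so in replicate 2. The rule looks at protein-coding genes only, so a promoter of a noncoding RNA can be a member. Counting all annotated genes, pseudogenes and transposons among them, also asks for 5 kb from each of their start sites. Under that wider rule 479 of the 969 peaks remained, or 547 with transposons left out. A noncoding RNA start site lay within 500 bp of 54 members.

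The remaining peaks of the 10 highest were spread over 3L and 3R. The peak chr3R:29214118-29214635, between Cyt-c1L and eEF1gamma, a gene of a translation elongation factor, had a signal value of 2407 and ranks of 21, 17 and 28. The peak chr3L:19560355-19561047, between CG9300 and Shal, which encodes a voltage-gated potassium channel, had 1209 and ranks of 136, 135 and 153. Replicate 2 covered only 45.0% of its length, so this peak failed the 50% overlap in spite of its high rank. The peak chr3L:3394856-3395265, between Ids and sty, the gene of the receptor tyrosine kinase antagonist Sprouty, had 1114 and ranks of 150, 112 and 195. Beyond these stood a peak between CG7320 and CheA75a (1055), one between CG43336 and pxb (864) and one between hid, a cell death gene, and CG7320 (857), which lay 5030 bp from the start site of hid. In all, 8 members had a signal value over 1000.

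The members lay at a median of 11096 bp from the nearest protein-coding start site, with quartiles of 7702 and 16936 bp. More than 10 kb separated 544 of them (56.1%) from any start site, more than 20 kb 161 and more than 40 kb 18. Of the 18 farthest, 9 lay in 1 stretch between Or67d and CG12362 on 3L. The farthest was chr3L:10350684-10351103 there, 61924 bp from the start site of CG12362, with a signal value of 155 and ranks of 4641, 7705 and 4394. Next was chr3L:6853017-6853436, at 60737 bp between vvl, a POU gene, and Prat2, with 105, and then chr3L:10352064-10352483, at 60544 bp, with 191 and ranks of 12520, 1387 and 3490. The ranks of that last peak differed widely between replicates.

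The peaks nearest the limit of the rule are given by position and signal value. Just inside, chr3L:14374603-14374816 lay 5011 bp from the start site of CG13481 with a signal value of 314, and chr3R:26235050-26235469 lay 5012 bp from that of CG12290 with 146. Just outside, chr3L:10977507-10977739 lay 4993 bp from the start site of CG14147 with 269, and chr3L:15230528-15230678 lay 4991 bp from that of Tollo with 359.

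The density of distal peaks was below that of the genome. The territory covers 19.4% of the 134 Mb in the 6 arms, and held 37.3 members per Mb where the genome held 61.0 optimal peaks per Mb, a ratio of 0.611. The replicates' own lists gave ratios of 0.603, 0.567 and 0.561. The density was lowest in 17 gene-poor bins of 1 Mb, those with at least 40% of their length in the territory. The nearer edge of each was less than 5 Mb from the centromere end of an arm's sequence, where heterochromatin is known to lie. They hold 9.38 Mb of the territory but only 5 members, all on X, and 65 optimal peaks of any class. In the rest there were 58.0 members per Mb against 68.2 optimal peaks per Mb. Repeats were denser in the gene-poor bins: 42.0% of their territory was soft-masked and 17.8% lay in annotated transposons, against 22.2% and 10.2% of the rest. How reads from repeats were placed is not stated for these lists, and the part of unplaced reads in the low counts, in the ratio of 0.611 and in the counts on transposons was not tested.

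Annotated transposons held few summits. They make up 12.9% of the territory, and 2 of 969 summits lay in one (0.206%, 95% Wilson interval 0.0566 to 0.749%). Over the whole genome they cover 5.93%, with 21 of the 8164 optimal summits (0.257%). Soft-masked repeats in the broader sense did not show this. Of member summits 23.2% were soft-masked, against 24.3% of other optimal summits and 29.4% of the territory. Outside the gene-poor bins, where all but 5 members lay, 22.2% of the territory was soft-masked.

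The X chromosome had fewest distal peaks for its number of peaks. Of its 1679 optimal peaks 96 were distal (5.72%, 95% Wilson interval 4.70 to 6.93%), and the replicates had 6.14%, 5.72% and 5.32%. Arm 3L had 323 of 1780 (18.1%, 16.4 to 20%), with 17.3%, 16.7% and 17.2% in the replicates, so that every replicate of 3L was above every replicate of X. The shares were 14.6% on 2L, 10.7% on 3R, 9.84% on 2R and 3 of 31 peaks on chromosome 4. Per Mb of territory X held 23.4 distal peaks, while the rest of X held 81.4 other peaks per Mb, the highest of the arms. With the gene-poor bins left out, X still had the lowest density among the 5 long arms, 36.6 per Mb against 83.1 for other peaks, and 3L the highest, 80.6 against 72.5. Arm 3L was then the one arm where the distal density passed that of other peaks.

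**Figure D3:**
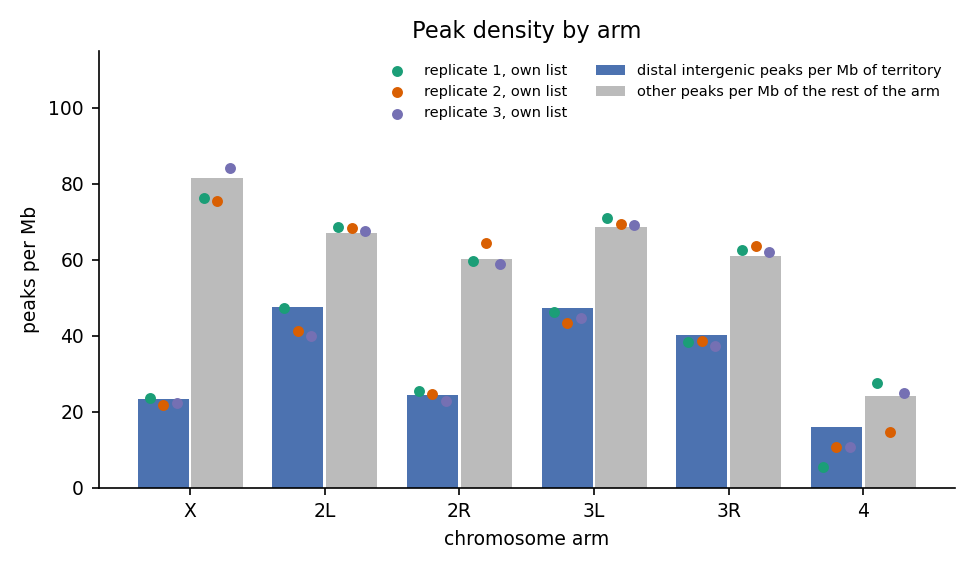
Distal intergenic peaks per Mb of territory (blue) and other optimal peaks per Mb of the rest of each arm (grey), with points for each replicate's own list. On X the distal density is 23.4 per Mb and the other 81.4, while on 3L they are 47.2 and 68.5.

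Distal peaks came in groups. Of 1460 stretches between protein-coding genes that contain territory, 325 held a member, and 143 of those held 1. The 67 stretches with 5 or more held 515 members (53.1%). Another member lay within 5 kb of 678 members (70.0%, 95% Wilson interval 67.0 to 72.8%). Each row of the list counts as a member, and 64 members overlap another, 1 pair with the same start and end. With overlapping members merged into 937 regions the share was 68.1% (65.0 to 71.0%). Counted by rows, the share was 52.7% among intergenic peaks at 1 to 5 kb, whose stretches are often shorter, and 76.0% among intronic peaks of long genes.

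The stretch with the most members lay on 3L between Or67d, which encodes the receptor of a male pheromone, and CG12362. It is 138 kb long and held 20 members with a median signal value of 113, the highest being chr3L:10328668-10329010 with 749, inside lncRNA:CR46006. The replicates' own lists had 18, 19 and 15 there. A further dense stretch lay near the tip of 3L. Between hng3 and CG13898 there were 17 members with a median of 255, the highest chr3L:762372-762677 with 696, and the replicates had 18, 16 and 18. All 3 replicates thus counted close to the same number in each of these 2 stretches.

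Farther along 3L, 16 members lay between NijA, a gene of a cell surface ninjurin, and CG43245 (highest chr3L:10760120-10760625, 725), and 12 between Aps and CG14147 (highest chr3L:10966069-10966339, 481). On 3R, 11 members crowded into 23.8 kb between CG18404 and heca, the headcase gene of imaginal cells, at 7.46 per 10 kb of territory. Their highest, chr3R:30272535-30272879, had a signal value of 812 and lay 5240 bp from the start site of heca. The stretches between Ids and sty and between CG7320 and CheA75a held 10 each, with medians of 273 and 333, well above the 153 of all members. Of these 7 stretches 6 were on 3L.

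**Figure D4:**
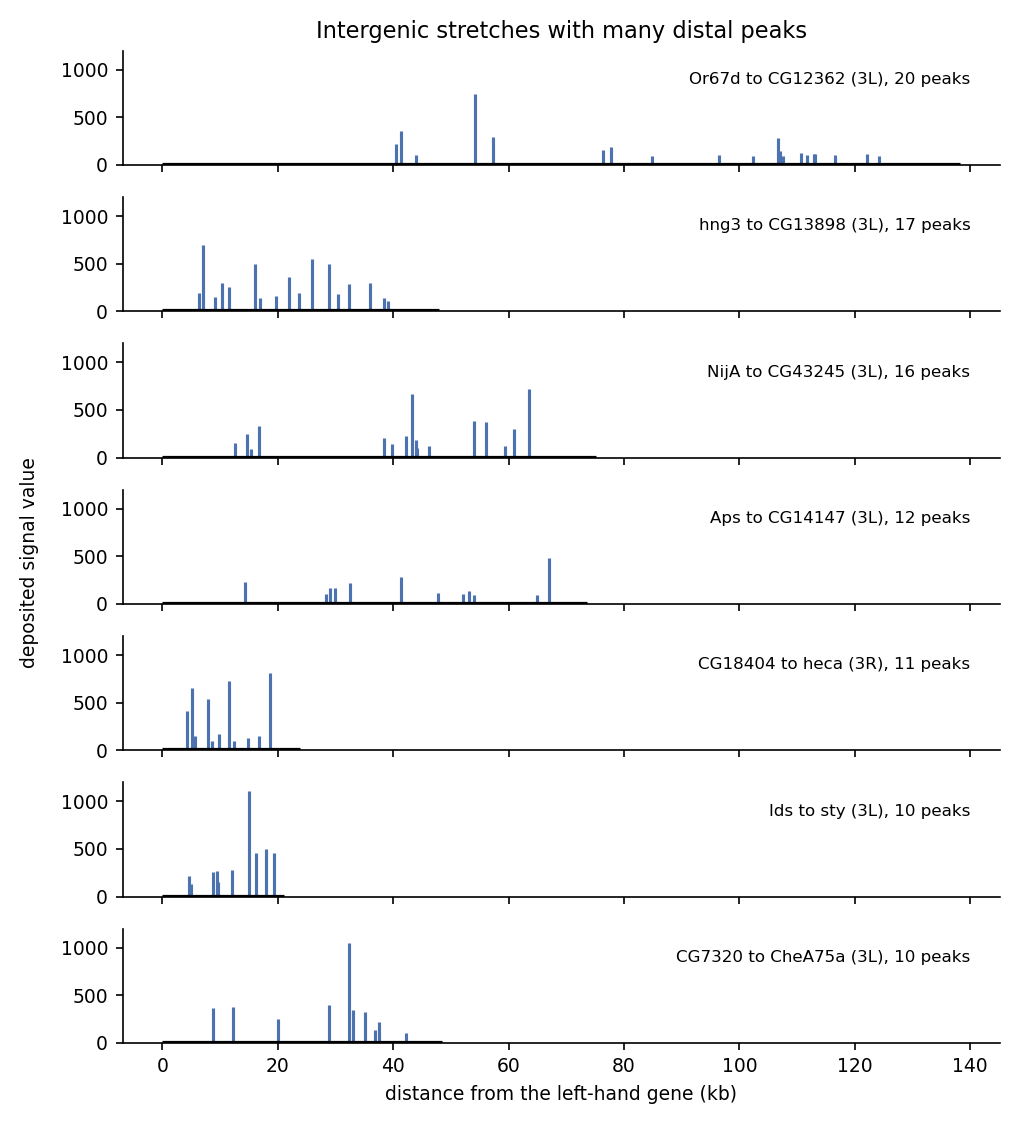
Signal value of each distal peak against its distance from the left-hand gene (kb) in 7 of the stretches with the most members, where ties were put in order of the highest peak; the black line is the length of the stretch. The stretch between Or67d and CG12362 has 20 peaks over 138 kb, mostly low, and the one between CG18404 and heca 11 peaks in 23.8 kb.

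Signalling genes were frequent neighbours, while the lists of developmental control genes, given further on, varied. Of the 2378 protein-coding genes that border territory 582 (24.5%) had a member beside them. Next to the 34 signalling genes that border territory there were 53 members, 139 per Mb of territory, and 22 of the 34 had at least 1. All members outside the gene-poor bins, where the territory of this list lies, had 58.0 per Mb. The replicates' own lists had 52, 47 and 52. The highest was the peak between Ids and sty with 1114, whose nearest start site was that of Ids, at 16802 bp. Then came chr2R:8644220-8644553, 5253 bp from ptc, the Hedgehog receptor gene, with 644 and ranks of 574, 578 and 546, and chr2L:7358054-7358365 between the ligand genes Wnt6 and Wnt10, with 558 and ranks of 805, 1052 and 649. sty had 10 members beside it, the Notch ligand gene Ser and the Wnt gene wg 6 each, vn, a ligand gene of the EGF receptor, 5, and dpp, a BMP ligand gene, 4.

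Around regulators of the ecdysone response there were 12 members in only 0.0838 Mb of territory, 143 per Mb, and they belonged to 2 of the 8 genes that border territory, a share like that of all genes. Without the stretches next to Eip93F the density was 51.4 per Mb, from 3 members. Eip93F, an ecdysone-induced transcription factor gene, had 9 and Eip75B, a nuclear receptor gene, 3. The highest next to Eip93F was chr3R:21941329-21941754, with a signal value of 694 and ranks of 575, 512 and 451. It was followed by chr3R:21937136-21937456 with 642 and chr3R:21922732-21922991 with 307. The start site nearest to the last of these was that of Qsox2, at 9137 bp. The replicates' own lists had 10, 12 and 10 peaks beside genes of this list.

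Selector genes, which set the identity of segments and organs, had densities nearer to the 58.0 per Mb of all members outside the gene-poor bins. Hox and homeodomain genes had 58 members beside 24 of 39 genes, 64.6 per Mb, with hth at 9, ems at 7 and en at 5. Their highest were chr3R:16798777-16799015 between Glut3 and abd-A, nearer to the former (359), chr3R:7024624-7024883 between Antp and Sodh1 (345) and chr3L:12442672-12442927 between toe and eyg (316). The other selector and patterning regulators had 65 members beside 23 of 43 genes, 70.4 per Mb, with knrl at 10, drm at 9 and salm and salr at 7 each. Their highest were chr3L:1129623-1129903 between bab1 and bab2, regulators of leg and abdomen patterning (426), chr2L:3594088-3594310 between sob and odd (381) and chr2L:21867358-21867587 between tsh and CG11629, nearer to the latter (357). Regulators of neural fate had 21 members, 51.8 per Mb, led by peaks in the stretches next to SoxN (285), pros (264) and hth (251). The start sites nearest to the peaks next to pros and hth were those of CG5214, at 24931 bp, and Cyp12e1, at 33649 bp. hth is on both lists.

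POU genes themselves had 11 distal peaks, 51.8 per Mb. That is below the 58.0 per Mb of all members outside the gene-poor bins, where all territory of this list lies. pdm3 had 3, the highest at chr2R:8321940-8322294 with a signal value of 361 and ranks of 1417, 1769 and 1566, 5412 bp from its own start site. vvl had 8, led by chr3L:6847375-6847562 with 317, at 57379 bp, and chr3L:6871432-6871622 with 185, the latter nearest to Prat2, at 42399 bp. The other 3 POU genes that border territory had none.

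For all 6 of these regulator lists joined, 271 genes, 210 members (21.7%) lay in stretches beside a list gene. Those stretches make up 10.6% of the territory, and 16.6% of the territory outside the gene-poor bins. Outside the gene-poor bins the density beside them was 76.1 per Mb and elsewhere 54.4 per Mb. The replicates' own lists gave 76.5, 73.2 and 68.5 beside list genes and 53.4, 50.1 and 50.3 elsewhere, so all 3 were higher beside list genes. The ratio was 1.40, or 1.42 ± 0.0505 over the replicates (SD, n = 3). This comparison was not planned, and the lists were chosen with earlier results of these data known. The replicates are the same libraries, so they are no independent support. Taken alone, the POU and neural fate lists had 51.8 per Mb each, below the 54.4 elsewhere, and the remaining lists had 64.6 to 143. A stretch was counted for a list when either neighbour was on it, so a peak need not act on the listed gene.

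Among the other lists, cell recognition and axon guidance genes, which border 2.15 Mb of territory, had 29 members, 13.5 per Mb. Outside the gene-poor bins they had 20.6 per Mb, where all members together had 58.0. Of these, 9 were beside 18w, a Toll family gene, led by chr2R:20121815-20122122 with 462 and followed by chr2R:20120617-20120821 with 337, and 6 beside caps, led by chr3L:13213410-13213706 with 398. Ion channel, transmitter receptor and synaptic genes had 10 members, 24.8 per Mb, with 3 next to Shal, whose second peak had 441, and the next highest next to dnc (213). For the Shal peaks with 1209 and 441 the nearest start site was that of CG9300. Chemoreceptor genes had 32 members, 41.8 per Mb, or 45.5 per Mb outside the gene-poor bins, again below 58.0. They stood beside 10 of 42 genes (23.8%), near the 24.5% of all genes that border territory. Of the 32, 20 were those beside Or67d, followed by Or65a with 5. Their next highest peaks were chr3L:11246089-11246398 between Ir68a and scyl, nearer to the latter (579), and chr3R:21838456-21838719 between Gr93a and Gr93b (528). Replicate 1 covered only 0.379% of the peak between Gr93a and Gr93b.

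The lists of larval and housekeeping products border little territory, and their counts are too small to rank. Salivary glue and prepupal gland genes and the larval serum and fat body genes had 0 members, in 0.0284 and 0.0160 Mb of territory. Cuticle protein genes had 3 in 0.0624 Mb, 48.1 per Mb, up to 120.5 next to Cpr51A, with 117 next to Cpr35B and 89.9 between Cpr50Ca and Cpr50Cb. For the Cpr35B peak the nearest start site was that of CG15283. Heat shock genes had 2 in 0.0343 Mb, 58.3 per Mb, both beside Hsp60B (126 and 91.4). Muscle structure genes had 1, next to Zasp52 (293), and cytosolic ribosomal protein genes 1, next to RpL10Aa (126), in 0.105 Mb outside the gene-poor bins.

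**Figure D5:**
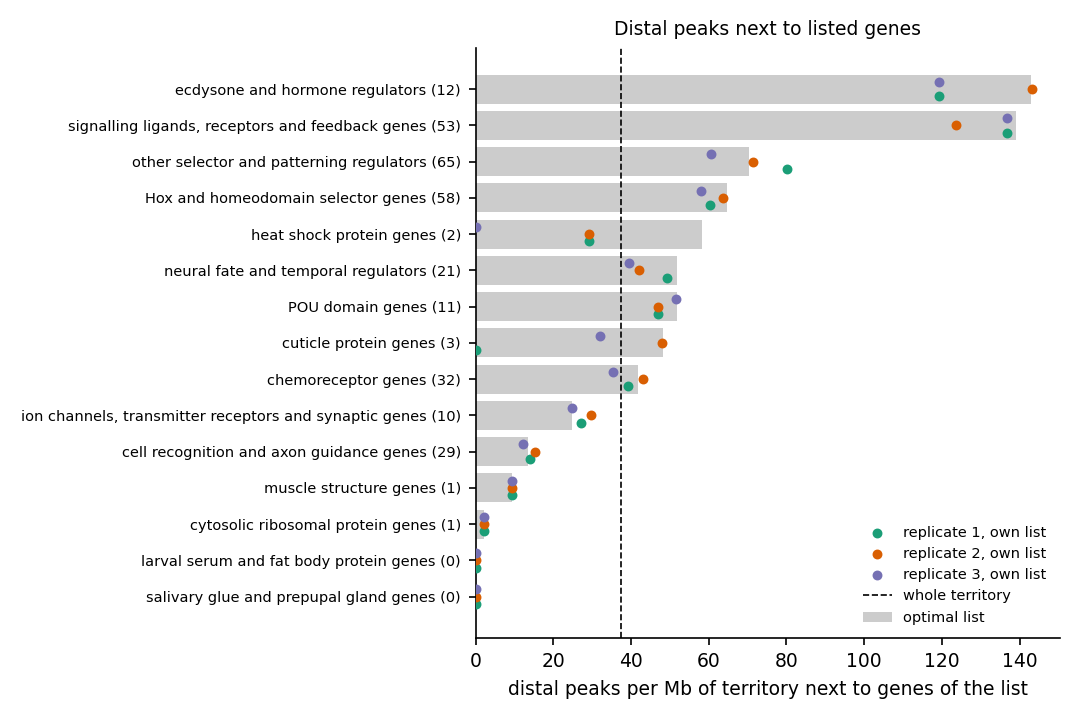
Distal peaks per Mb of territory in stretches next to genes of each list, with the number of members in brackets; bars give the optimal list, points each replicate's own list, and the dashed line all territory (37.3 per Mb). Outside the gene-poor bins, where the territory of most lists lies, all members had 58.0 per Mb. The POU, neural fate, cuticle and chemoreceptor lists (51.8, 51.8, 48.1 and 41.8) are above the dashed line but below that value. Ecdysone regulators and signalling genes stand highest at 143 and 139 per Mb, and lists with few members rest on little territory.

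Noncoding RNA genes were the other annotated feature at members. The summit lay inside one in 117 members (12.1%, 95% Wilson interval 10.2 to 14.3%), where such genes cover 6.43% of the territory. Of all optimal summits 5.29% lay in one, and these genes cover 3.71% of the genome. Start sites of noncoding RNA genes had 54 members no more than 500 bp away (5.57%), against 2.31% of the territory. The direction of the neighbouring genes made less difference. Stretches between divergent genes had 43.9 members per Mb, tandem ones 40.3 and convergent ones 36.9, while the ends of the arms, with 1.86 Mb, had 0. These densities, and the shares of territory given for noncoding genes, include the gene-poor bins, which hold 9.38 Mb and 5 members. They were not computed without those bins, so the part of the bins in these contrasts was not tested. With distance from the start site the density outside the gene-poor bins was 60.5 per Mb at 5 to 10 kb, 63.5 at 10 to 20 kb, 51.8 at 20 to 40 kb and 20.6 beyond 40 kb.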

How the data were processed

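The authors' peak lists on dm6 were used, 1 of 30000 candidates per replicate, 1 for the replicates pooled and the optimal list. Per the labels' readme, candidates were found in the alignments of a library set against a control file, and the optimal list was made from the candidate lists. For the aligner, peak caller and threshold no source used here gives a name. The deposited signal value has no stated normalization and was used only for ranks. The control library and the dm3 lists were not analysed here.

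Summits were classed with Ensembl release 115 (13945 protein-coding genes, 19607 start sites), and coordinates are counted from 1. A peak took its rank in a replicate from the highest overlapping peak, however small the overlap. Flanks are the mean of both sides, 500 bp away. No test over peaks was made, because peaks are not replicates. Named were the 10 highest members, the 8 stretches with most members (1 is not reported here), up to 3 members per gene list (15 lists), the 3 farthest and the 4 nearest the limit. Other genes given only with counts were chosen after their counts were seen. Sequences leave out arm 2R. Members and lists were chosen with earlier results of these data known. The scripts were tested on simulated data. Python 3.11.15, numpy 2.4.6, pandas 2.3.3 and matplotlib 3.10.9 were used.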

Additional observations from a re-analysis of the deposited data

How the results depend on the processing

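The number of members was 1270 at over 3 kb, 544 at over 10 kb, 479 when noncoding genes, pseudogenes and transposons also counted as genes, 969 (the same peaks) with the RefSeq annotation and 951 when the whole peak had to meet the rule. The share of peaks in the class, 11.9%, was 9.87% in the higher-signal 50% of the list, 18.3% below the list, 11.2% in the replicates' own lists and 11.2 to 11.7% in the peaks covered by both lists when 1 replicate was left out. The density ratio, 0.611, was 0.672 at over 3 kb, 0.488 at over 10 kb, 0.706 without repeats and gaps, 0.509 in the higher-signal 50% and 0.579 to 0.601 without 1 replicate. It was 0.851 without gene-poor bins and 0.661 without transposons. These last 2 alternatives, and those of GC content, of merged members and of the gene lists, were chosen after seeing the data. Coverage by all 3 replicates, 93.4%, was 65.7% at 80% overlap, 59.5% in the own top lists and 94.6 to 96.7% without 1 replicate.

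The rank difference kept its direction under the 7 alternatives run, at 0.816 to 3.05 percentage points, with 2.95 to 3.05 without 1 replicate; no exact p could fall below 0.25. The octamer difference, -0.98 percentage points, was -0.568 within 30 bp, -2.43 within 100 bp, -1.34 with flanks at 1000 bp, -1.61 in the higher-signal 50% and -1.47 to -1.35 without 1 replicate. It reversed to 1.09 where all windows had to be free of soft-masked bases. That left 46 members, too few for so rare a word to give a direction, and the cause was not tested. The GC difference, -12.1 points, was -9.56 within 100 bp, -9.40 with flanks at 1000 bp and -10.4 in those 46 members, and -12.4 to -12.1 without 1 replicate. Members with another within 2 kb were 47.6%, within 10 kb 79.9%. The ratio beside regulator lists, 1.40, was 1.23 in the higher-signal 50% and 1.40 to 1.45 without 1 replicate. No depth limit could be computed.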
